A study of Mus musculus with 2 samples.

Results

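The intervals described here are the stretches of open chromatin that lay between genes but close to the start of one. They were taken from a consensus table of 119502 ATAC-seq intervals by position alone: an interval on one of the 19 autosomes was kept if it overlapped no annotated gene on either strand, overlapped no transcription start site (TSS), and had its nearer edge within 5 kb of the nearest TSS of a protein-coding gene (GENCODE annotation, coordinates mm10). The rule kept 2327 intervals, 1.95% of the table and a small part of the 40868 autosomal intervals that overlapped no gene. Of these, 2126 lay upstream of the start of their nearest gene and 201 lay beyond the 3′ end of a short gene whose start was still within 5 kb. They were spread over 2099 genes: 1891 genes had 1 member, 189 had 2, 18 had 3 and 1 had 4.

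ATAC-seq cuts and tags accessible DNA with a transposase, so the number of fragments counted in an interval reflects how open it was. The cells came from an Olig2-mKate2 line of mouse embryonic stem cells, in which the fluorescent protein mKate2 reports on Olig2. They were differentiated for 5 days towards ventral spinal cord, under the smoothened agonist SAG at 100 nM and retinoic acid at 100 nM, sorted live for mKate2, and 50000 cells went into each transposition. There was 1 group with 2 libraries, replicate 1 and replicate 2, so no treatment or genotype was compared, and the sorted population can also hold newly formed motor neurons and some cells that express NKX2.2. The libraries held 31876165 and 31672240 counts over all intervals. Every density below is the count divided by the DESeq2 size factor of the library and by the length of the interval in kb. Nothing in the labels says that the libraries came from separate differentiations, so the spread between them may be technical.

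The cells were checked at the TSS intervals of marker genes, meaning the intervals that overlapped the annotated start. All 6 markers of progenitors (Olig2, Nkx6-1, Pax6, Sox2, Sox1 and Nes) had one, with densities of 186.5 to 1498. Of 5 motor neuron markers 4 had one, at 399 to 1087. Of the p3 and floor plate markers Nkx2-2 had one at 484, whereas Foxa2 and Shh had none over the annotated start. Foxa2 did have a member 1322 bp upstream, with densities of 806 and 741 in replicates 1 and 2. Neither Pou5f1 nor Nanog, which define the stem cell state, had an interval over the start, nor did the fibroblast genes Col1a1 and Lum, while Zfp42, T, Cdx2, Col1a2, Dcn and Twist2 had one at 123 to 294, a range that includes the progenitor marker Pax6 at 186.5.

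DNA just outside a gene can act in several ways. It may hold the outer part of a promoter, an enhancer that contacts the nearby start, the unannotated promoter of another transcript, or a site for the insulator protein CTCF, which anchors chromatin loops. In neural progenitors the genes of the Notch pathway, the HES and ID repressors and the proneural activators are controlled by many such short-range elements.

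The sequences at the centre of a few members are printed first, to be read beside the later results on nearby genes and on motifs. They are reference sequence from RefSeq GRCm38.p6, plus strand, with 200 bp from the middle of each interval. Capitals mark each match, on either strand, to the short words searched for (listed with the motif results). The first set holds the densest members beside progenitor, Notch and proneural, hedgehog, retinoic acid, Hox and motor neuron genes.
Sox21, chr14:118231104-118231303: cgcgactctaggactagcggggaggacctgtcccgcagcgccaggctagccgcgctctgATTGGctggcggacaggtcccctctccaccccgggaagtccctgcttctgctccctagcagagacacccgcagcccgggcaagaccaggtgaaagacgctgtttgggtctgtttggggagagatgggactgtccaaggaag
Irx3, chr8:91797819-91798018: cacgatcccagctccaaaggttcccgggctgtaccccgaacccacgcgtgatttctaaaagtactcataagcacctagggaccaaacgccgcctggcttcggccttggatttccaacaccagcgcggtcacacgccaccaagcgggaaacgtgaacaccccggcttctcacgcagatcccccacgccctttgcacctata
Hes3, chr4:152292480-152292679: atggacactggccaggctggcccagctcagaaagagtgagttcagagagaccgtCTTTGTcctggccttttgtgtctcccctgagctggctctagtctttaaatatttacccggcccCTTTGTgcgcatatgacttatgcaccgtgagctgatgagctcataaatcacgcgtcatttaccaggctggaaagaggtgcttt
Id2, chr12:25098968-25099167: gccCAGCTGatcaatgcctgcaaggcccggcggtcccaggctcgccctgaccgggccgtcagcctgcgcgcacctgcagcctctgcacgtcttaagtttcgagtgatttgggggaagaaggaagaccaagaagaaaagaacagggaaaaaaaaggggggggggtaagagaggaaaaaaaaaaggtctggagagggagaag
Foxa2, chr2:148048647-148048846: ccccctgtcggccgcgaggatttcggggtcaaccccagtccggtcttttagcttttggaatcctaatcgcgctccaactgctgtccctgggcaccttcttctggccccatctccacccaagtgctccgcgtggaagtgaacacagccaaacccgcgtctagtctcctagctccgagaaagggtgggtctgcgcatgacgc
Gas1, chr13:60171705-60171904: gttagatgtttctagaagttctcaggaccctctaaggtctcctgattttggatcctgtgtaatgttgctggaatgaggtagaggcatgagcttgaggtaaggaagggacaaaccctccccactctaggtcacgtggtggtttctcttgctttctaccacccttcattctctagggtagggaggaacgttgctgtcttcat
Crabp1, chr9:54759688-54759887: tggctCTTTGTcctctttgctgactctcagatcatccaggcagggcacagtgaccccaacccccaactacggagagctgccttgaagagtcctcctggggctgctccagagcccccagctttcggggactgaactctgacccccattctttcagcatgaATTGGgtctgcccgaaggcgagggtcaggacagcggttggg
Crabp2, chr3:87945717-87945916: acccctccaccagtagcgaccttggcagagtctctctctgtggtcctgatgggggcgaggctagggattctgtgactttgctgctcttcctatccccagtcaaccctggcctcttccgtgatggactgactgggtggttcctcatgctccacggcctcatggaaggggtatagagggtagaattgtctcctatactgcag
Hoxb4, chr11:96315006-96315205: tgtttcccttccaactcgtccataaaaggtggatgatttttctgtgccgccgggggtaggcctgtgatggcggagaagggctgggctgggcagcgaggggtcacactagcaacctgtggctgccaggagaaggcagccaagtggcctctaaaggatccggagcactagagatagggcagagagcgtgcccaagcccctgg
Nefh, chr11:4949373-4949572: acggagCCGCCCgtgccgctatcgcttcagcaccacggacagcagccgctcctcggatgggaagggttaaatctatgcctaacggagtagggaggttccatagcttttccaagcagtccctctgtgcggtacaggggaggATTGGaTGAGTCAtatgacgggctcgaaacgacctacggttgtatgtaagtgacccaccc

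The second set holds the members of highest density overall that are not printed above. The GC box occurs 3 times in the centre of the Igf2bp3 member, and the Fzd9 member holds 1 SOX word.
Igf2bp3, chr6:49217889-49218088: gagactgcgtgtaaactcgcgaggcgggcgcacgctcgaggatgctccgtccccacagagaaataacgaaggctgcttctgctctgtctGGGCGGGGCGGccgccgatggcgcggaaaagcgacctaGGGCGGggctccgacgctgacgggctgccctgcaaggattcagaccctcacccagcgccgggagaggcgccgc
Fzd9, chr5:135253877-135254076: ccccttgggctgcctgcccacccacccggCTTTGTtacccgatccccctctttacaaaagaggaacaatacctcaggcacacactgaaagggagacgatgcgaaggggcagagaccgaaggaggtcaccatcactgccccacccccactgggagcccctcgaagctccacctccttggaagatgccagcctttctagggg

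The third set holds, in full, the densest members that contained the CTCF word.
Zfp703, chr8:26981783-26981967: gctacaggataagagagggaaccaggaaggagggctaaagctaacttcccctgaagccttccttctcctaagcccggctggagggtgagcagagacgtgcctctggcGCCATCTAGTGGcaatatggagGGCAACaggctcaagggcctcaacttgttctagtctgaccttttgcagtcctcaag
Tia1, chr6:86401199-86401357: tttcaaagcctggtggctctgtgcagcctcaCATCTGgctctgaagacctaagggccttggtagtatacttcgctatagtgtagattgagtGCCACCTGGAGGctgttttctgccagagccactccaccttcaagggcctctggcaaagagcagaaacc

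The typical member was a short and fairly weak interval. Its median length was 419 bp, with quartiles of 264 and 728 bp, and its median count was 90 in each library. The median density was 202 in replicate 1 and 202 in replicate 2, or 202 ± 0.220 (SD, n = 2). The quartiles of density were 105 and 428 and the highest value was 3065, so a minority of members was far more open than the rest. In a bulk sample, an interval more open in every cell and one open in more of the cells cannot be told apart. A mean normalised count over 100 was reached by 1088 members, or 46.8% (95% Wilson interval 44.7 to 48.8%, counting error only), against 38.7% of all autosomal intervals. At the low end 71 members had a mean normalised count under 10 and 2256 had at least 10.

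The members stood between the other classes of interval in density. The 11806 TSS intervals had median densities of 883 and 856 in replicates 1 and 2, and members were at 0.232 ± 0.00531 (SD, n = 2) of that level, below it on all 19 autosomes. The order varied with length, but few TSS intervals were short: 139 up to 300 bp and 429 at 300 to 600 bp. In these 2 strata members had densities of 169 and 198, and TSS intervals of 112 and 157 (mean of the libraries). At 600 to 1200 bp the order turned, with 229 for members and 966 for 5014 TSS intervals. Above 1200 bp the values were 248 for members and 852 for 6224 TSS intervals. The 21681 intergenic intervals over 50 kb from a protein-coding TSS had median densities of 119 and 122. Members were 1.67 ± 0.0342 times as dense (SD, n = 2), and higher on 19 of 19 autosomes. These differences were larger than the spread between the libraries, but with 2 libraries an exact sign permutation test cannot give a two-sided p under 0.5, so none is given.

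The comparison with intragenic intervals near the TSS depended on what counted as a start, and its size varied with length. These overlapped any annotated gene but no TSS, and could lie on either side of the nearest TSS. Intragenic intervals within 5 kb of the TSS (4870 of them) had median densities of 268 and 265, and the members were at 0.757 ± 0.00855 (SD, n = 2) of these, higher on 2 of 19 autosomes. When every annotated transcript start of a protein-coding gene was treated as a TSS, 943 of these intragenic intervals became TSS intervals (median densities 638 and 615), 3849 stayed (218 and 215) and 4270 others joined (125 and 129). The intragenic median became 156 in replicate 1 and 158 in replicate 2, and the members were 1.26 ± 0.0162 times as dense (SD, n = 2), higher on 17 of 19 autosomes. Under the first definition, members up to 300 bp long had a density of 169 and intragenic intervals of 179 (mean of the libraries). The values were 229 and 327 at 600 to 1200 bp, and 248 and 473 above 1200 bp. Only at 300 to 600 bp were members higher, at 198 against 189. Counting every transcript start barely changed the set of members, of which 2280 stayed and 105 were added.

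A large split among the members followed the state of the nearest gene. For 1181 members, 50.8% of all, the TSS of the nearest gene was itself in an interval. Their median densities were 316 and 310.1 in replicates 1 and 2. For the other 1146 members the TSS was in no interval, and the medians were 139.7 and 140.1. Members of the first kind were 2.59 times as dense as the far intergenic intervals, whereas members of the second kind were 1.16 times as dense. Among the second kind, 248 had another start of the same gene in an interval (median density 177 ± 0.565, SD, n = 2) and 898 had none (132 ± 0.0195, SD, n = 2).

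Density did not fall away smoothly with distance. The 288 members within 1 kb of the TSS had median densities of 131 and 132, lower than the 192.1 and 190.1 of the 535 members at 4 to 5 kb, a ratio of 0.689 ± 0.00870 (SD, n = 2). The genes differed between these bins, since 38 of the 288 nearest members but 338 of the 535 farthest had the TSS in an interval: a TSS interval had a median length of 1230 bp and takes up the sequence beside the start. Where the TSS was in no interval, density was nearly flat, at 127, 133, 157, 136 and 133 from the first kb to the fifth (mean of the libraries). Where the TSS was in an interval, density was 153 in the first kb, then 366, 354 and 370.0, and 256 in the last.

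The 5 kb limit coincided with a step. In the last 500 bp inside it, members whose TSS was in an interval had median densities of 234 and 233 in replicates 1 and 2 (202 members), and in the first 500 bp outside it the medians were 141 and 136 (268 intervals). The number of such intervals per 500 bp changed as well, from 121 to 145 between 1 and 4.5 kb to 220 to 273 between 5 and 9 kb. In the 500 bp bins from 3500 to 5500 bp, their medians were 359, 289, 234 and 139 (mean of the libraries), so the fall began before the limit. The genes changed too, since their TSS intervals had median densities of 484, 518, 780.5 and 885.8 in the same bins. Intervals whose TSS was in no interval showed no step, with medians of 143 and 133 just inside and 126 and 127 just outside. The members next to the limit span this range: Ephb2 (4999 bp) had densities of 574 and 633, Tmem235 (4998 bp) 209 and 192, and Trim46 (4997 bp) 174 and 190.1, while the first 3 intervals outside, near Gm9964, Gm49336 and Rpl9-ps1, had mean densities of 49.4, 369 and 14.5.

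**Figure D1:**
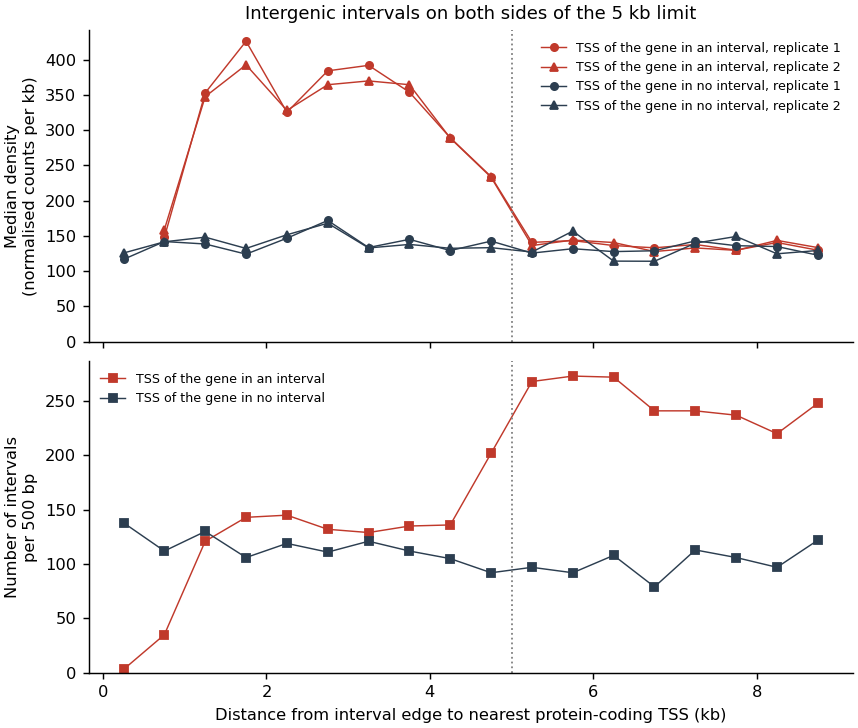
Intergenic intervals in bins of 500 bp by distance from the interval edge to the nearest protein-coding TSS, up to 9 kb, with median density in each library above and the number of intervals below. Red marks genes with the TSS in an interval (bins with fewer than 30 intervals are not drawn above) and dark blue genes without; the dotted line is the 5 kb limit, where the red medians come down to the level of the blue ones and the number of red intervals rises to 268.

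Beside strong starts, weak intervals were fewer inside the limit than outside. The intervals at 1 to 9 kb whose TSS was in an interval were split at the median density of those TSS intervals, 769. Beside the stronger starts, 56 of 445 intervals at 1 to 5 kb had a density under 200, against 787 of 1126 at 5 to 9 kb, and the 10th percentile of density was 171 inside and 60.4 outside. Strong intervals were more frequent inside, with 253 intervals over 500 at 1 to 5 kb and 91 at 5 to 9 kb, and 92 against 26 over 1000. Beside the weaker starts the contrast was smaller: 325 of 698 intervals inside and 617 of 874 outside had a density under 200, with 10th percentiles of 74.1 and 59.2, and 119 and 59 were over 500.

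A fall in density was also present where there was no gene, at a shorter distance. Among intergenic intervals over 50 kb from any protein-coding TSS, those at 1 to 5 kb from another such interval of density over 500 had median densities of 328 and 338 in replicates 1 and 2 (548 intervals), and those at 5 to 9 kb had 135 and 139 (516 intervals). The 10th percentile of density was 97.0 in the first set and 55.4 in the second. By kb, the fall lay between the bins at 3 to 4 kb (365 and 391) and at 4 to 5 kb (162 and 164), with 144 and 144 at 5 to 6 kb. MACS, the peak caller used for the table, scores each candidate against a background rate estimated from the reads around it, so that a candidate beside strong signal needs more reads to be listed. The part of this in the step, and in every comparison of members with farther intervals above, was not tested.

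Members and the start of their own gene were then compared. Taking the member nearest to the TSS for each of 1087 genes, the median ratio of member to TSS interval was 0.625 in replicate 1 and 0.628 in replicate 2. Across genes the densities of both rose together, with a Spearman rank correlation of 0.609 and 0.595. With the genes ranked by TSS density and cut into 4 equal groups, the members had median densities of 130.2, 281, 422 and 648 (mean of the libraries). The points share the library and its depth, and genes are not independent replicates, so the correlation is a description without a p.

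This relation ended at the same distance as the step. The rank correlation within members was 0.714 at 1 to 2 kb, 0.666 at 2 to 3 kb, 0.684 at 3 to 4 kb and 0.484 at 4 to 5 kb (mean of the libraries). For intergenic intervals at 5 to 50 kb it was -0.0177 over 5249 genes. Intragenic intervals within 5 kb, by contrast, had a rank correlation of 0.630 over 1904 genes. In replicate 1 it was 0.612, 0.611 and 0.642 for members of low, middle and high GC content. This split was by the GC content of the member alone, and the part of base composition in the correlation was not tested. A short-range rank correlation was also present over 50 kb from any protein-coding TSS. There, intervals at 1 to 5 kb from a strong intergenic interval had 0.237 and 0.241 with it in replicates 1 and 2. At 5 to 9 kb the values were -0.00476 and -0.00742. By kb, they were 0.311 and 0.34 at 3 to 4 kb, and 0.0387 and 0.0883 at 4 to 5 kb. Whether the selection of listed intervals by MACS had a part in the relation of members to their starts was not tested.

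**Figure D2:**
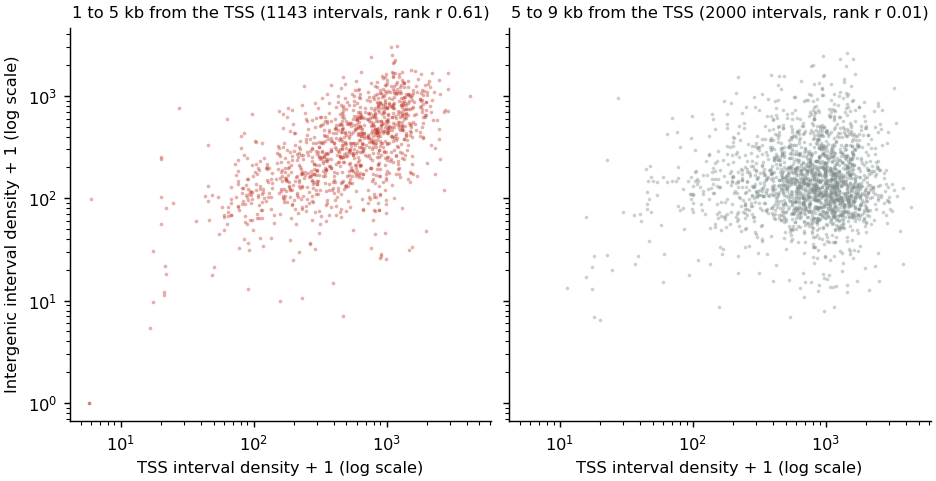
Each point is an intergenic interval whose nearest protein-coding gene had its TSS in an interval; both axes are mean density over the 2 libraries plus 1, on log scales. The left panel holds intervals at 1 to 5 kb, where the density rises with that of the TSS interval and the lower right is nearly empty, and the right panel those at 5 to 9 kb, where weak intervals lie beside strong starts.

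Some members had a higher density than the start they accompany. In both libraries this held for 287 of the 1181 members with a TSS interval, or 24.3%. Density is per kb, and the median length was 419 bp for members and 1230 bp for TSS intervals. The part of length in this share was not tested. The densest of all was the member 2645 bp upstream of Igf2bp3, which encodes an RNA-binding protein of the embryo (chr6:49217602-49218376). It had densities of 3119 and 3012 in replicates 1 and 2, with 1220 and 1163 at the TSS interval. This member was rich in CpG (62.7% GC, observed over expected CpG 0.906), as was the one upstream of Nr4a3, a nuclear receptor gene (chr4:48042700-48043697), with densities of 2559 and 2457.

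Other members of very high density varied in CpG content. The member 2278 bp upstream of Fzd9, which encodes a Wnt receptor (chr5:135253508-135254445), had densities of 2933 and 3130 and a CpG ratio of 0.187. The member upstream of Tnrc18 (chr5:142821374-142822195) had densities of 2388 and 2445. A 185 bp member beyond Zfp703 (chr8:26981783-26981967), which carries the CTCF word, had densities of 2174 and 2275. The densest 10 were completed by Hes3, Id2 and Id3, described with their list, and by members upstream of Upk3bl (1954 and 1947) and of Mog (1981 and 1919), a myelin gene whose own TSS was in no interval. In all 10, the libraries differed by at most 1.07-fold.

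By count rather than density, the leading members were long. The largest count was upstream of Kdm6b, a histone H3K27 demethylase gene (chr11:69417287-69419899, 2613 bp), with 3242 and 3150 counts. Among the others, Aurkb, a mitotic kinase gene, and Sox21 had members with 3041 and 2770 and with 2783 and 2838 counts, and Fzd9 had 2750 and 2937.

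The gene lists show where the dense members lay. They were drawn up with earlier results of these data known, and are read against 10.1% of the 20807 autosomal protein-coding genes that had a member (2099 genes) and against the median density of 202 over all members. The lists also differed in how many genes had the TSS in an interval. These were 25 of 26 in the proneural and Notch list, 19 of 20 in progenitor and 15 of 16 in housekeeping. They were 7 of 13 autosomal genes in pluripotency and 7 of 23 in other lineages. Members of genes with a TSS interval had a median density of 313 and the rest 140 (mean of the libraries). The part of this split in the list values was not tested. No list was tested.

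Genes of proneural and Notch function had the most. Of 26 genes 13 had a member, and 17 of their 18 members were above the median of all members, with list medians of 915 and 996 in the 2 libraries. Hes3, a repressor of the HES family that keeps progenitors undifferentiated, had a member 565 bp upstream of the gene (chr4:152292227-152292933) with densities of 2621 and 2695, and no interval over the annotated start. Id2 and Id3 encode partners that hold proneural proteins off DNA. The member upstream of Id2 (chr12:25098539-25099597) had densities of 2123 and 2119, and that upstream of Id3 (chr4:136140331-136140924) had 2092 and 2090. Both lay above their own TSS intervals, at 1134 and 1111 (mean of the libraries).

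The rest of this list was dense too. Among repressors, Hes1 had a member beyond its 3′ end with densities of 1020 and 1027, and Hes5 had a pair upstream, of 847 and 1034 and of 916 and 942. Nrarp, a feedback inhibitor of Notch, had one beyond its 3′ end with 1553 and 1533 and one upstream with 479 and 514. The Notch ligand gene Dll1 had a member of 2245 bp (chr17:15380546-15382790) with 858 and 855. The proneural genes themselves had members at 1160 and 1284 (Neurod4) and 914 and 972 (Neurog2), in replicates 1 and 2. Heyl, another repressor, was the exception with 87.2 and 69.4.

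The progenitor list, which holds transcription factors and other progenitor genes, had members less dense on the whole. Of its 20 genes 6 had a member, and 5 of the 6 members were above the median of all members. Sox21, a repressor of the SOX family, had a member of 2040 bp beyond its 3′ end (chr14:118230184-118232223) with densities of 1365 and 1391. Irx3, which marks progenitors dorsal to the motor neuron domain, had one of 1058 and 1017 (chr8:91797630-91798207), and Nkx6-1, expressed in ventral progenitors, one of 797 and 701 (chr5:101666597-101666974). Nkx6-2 had 340.0 and 278 and Zic2 had 215 and 207. The member of Olig2, the gene that defines the sorted cells, lay 4815 bp from the start beyond the 3′ end (chr16:91230272-91230697) and had densities of 141 and 143, below the median, while its TSS interval had 946 (mean of the libraries).

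Members near genes of the 2 signals in the medium differed in number. Of 18 hedgehog genes 2 had one, both above the median. They were upstream of Foxa2, a floor plate gene, with densities of 806 and 741 (chr2:148048291-148049202), and beyond Gas1, which encodes a co-receptor for hedgehog ligands, with 539 and 574 (chr13:60170938-60172671). Of 18 retinoic acid genes 8 had one, with list medians of 437 and 428. The retinoid-binding protein genes Crabp1 and Crabp2 led with 1054 and 1017 (chr9:54759338-54760237) and with 723 and 801 (chr3:87944998-87946635), and for Crabp1 the TSS interval was lower, at 359. Meis1, a HOX cofactor gene, had 681 and 634. The retinoid-degrading enzymes Cyp26b1 and Cyp26a1 had 516 and 494 and 429 and 361, and both members near the receptor gene Rarb were weak, at 84.0 and 72.5 and at 106 and 43.5.

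Hox genes, which set position along the body axis, had members of moderate density. Of 39 genes 9 had one, 11 members in all, of which 9 were above the median. Hoxb4 (chr11:96314858-96315354) had 572 and 505 and Hoxb1 (chr11:96363612-96364258) had 521 and 519. The members beside Hoxb8, Hoxb9, Hoxb13, Hoxc10, Hoxc12 and Hoxd12, had mean densities of 114 to 309.6.

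The remaining lists were short. Of 18 motor neuron genes Nefh alone, a neurofilament gene, had a member, with 650.0 and 590.2 (chr11:4949296-4949649). In the pluripotency list 5 of 13 autosomal genes had members, 2 of 6 members were above the median, and the list medians were 123 and 106. Both members upstream of Pou5f1 had densities under 110, at 99.7 and 109.6 and at 88.8 and 73.3, and the highest was upstream of Klf2 with 387 and 424. Of the 23 autosomal genes of other lineages 5 had 1 member each, with mean densities of 108 to 376, and 2 of these members were above the median. The share of genes with a member was 38.5% in the pluripotency list and 21.7% in other lineages, both above the 10.1% of all genes. Of 16 housekeeping genes 4 had 1 member each, all above the median, with list medians of 589 and 560.2 in the 2 libraries, higher than in the progenitor list (568 and 489.6) and the retinoic acid list. The immediate early gene Ier2 alone in its list of 12 had one, with 1679 and 1626.

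**Figure D3:**
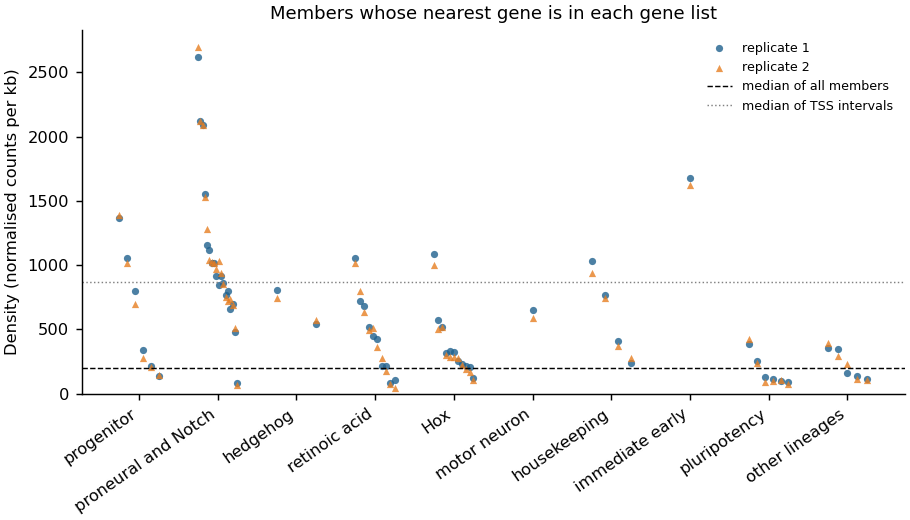
Density of every member whose nearest gene was in one of the 10 gene lists, as a circle for replicate 1 and a triangle for replicate 2, in order of density within a list. The dashed line is the median of all members (202) and the dotted line that of TSS intervals (869.5); in the proneural and Notch list 17 of 18 members lie above the dashed line.

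Some genes had several members. In all 19 genes had 3 or more, and of these Gm11214, with 4, and Trh, Iyd, Ccdc182 and Hand1, with 3 each (ties in the order of gene identifiers), were examined. The 4 members of Gm11214, a predicted gene, had mean densities of 11.9 to 154. Those of Trh, the gene of thyrotropin-releasing hormone, had 149 to 584, and those of Hand1, a regulator of heart and limb, had 158 to 186. Of the Gm11214 members 1 matched 1049 other places in the genome at 90% identity or more over at least 100 bp, so its reads may be shared.

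The median base composition of members was close to that of intergenic intervals at 5 to 50 kb. Median GC content was 50.4% in members and 49.3% in those intervals. It was 60.3% in TSS intervals, 54.7% in intragenic intervals within 5 kb and 46.1% in intergenic intervals over 50 kb away. The median ratio of observed to expected CpG was 0.220 in members and 0.216 at 5 to 50 kb, against 0.701 in TSS intervals and 0.185 in the far intervals. Only 110 members, 4.73%, met both limits used for CpG-rich sequence (GC over 50% and a ratio over 0.6). The limits were met by 70.2% of TSS intervals, 1.87% of intergenic intervals at 5 to 50 kb and 0.839% of far intervals. The CpG-rich members were the denser ones, with median densities of 569 and 531 against 190.9 and 190.5 for the rest. A start of a non-coding gene lay within 1 kb of 53 members.

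Repeats made up little of the members. The median share of repeat-masked bases was 10.1%, and 141 members were masked over more than 50% of their length. These had median densities of 139 and 137 in replicates 1 and 2, and the 505 members with no masked base had 203 and 208.

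Short words were searched in the central 200 bp on both strands: the GC box GGGCGG, the CCAAT box CCAAT, the ETS word CCGGAAG, the NRF1 word GCATGCGC, the CRE word TGACGTCA, the AP-1 word TGACTCA, the E-boxes CAGCTG and CAGATG, the SOX word ACAAAG, the homeodomain word TAATTA, the POU word ATGCAAAT, the FOX word TGTTTAC, the RFX word GTTGCC, the GLI word GGGTGGTC, and the CTCF core by name. No word contains another, but matches can overlap. In 8 of the 15 the share was higher in members than in far intergenic intervals.

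The GC box and the ETS word were less frequent in members than at starts, and the CCAAT box was more frequent, at 22.99% of members and 18.1% of TSS intervals. The GC box was present in 9.63% of members, 48.6% of TSS intervals, 3.98% of far intervals and 11.1% of all autosomal intervals. The ETS word was in 1.42% of members and 8.71% of TSS intervals. Members with a GC box had median densities of 355 and 338, and those without had 190.6 and 190.2. The AT-rich homeodomain word and the SOX word went the other way, at 4.21% and 21.96% of members, 7.09% and 29.1% of far intervals and 0.889% and 7.82% of TSS intervals. These shares follow the GC content of the classes given above, whose part in them was not tested.

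Of the classes compared, the share with the CTCF word was highest in members. It was in 134 of 2327, or 5.76% (95% Wilson interval 4.88 to 6.78%), against 0.491% of TSS intervals (0.380 to 0.635%), 3.24% of intragenic intervals within 5 kb (2.78 to 3.78%), 4.35% of intergenic intervals at 5 to 50 kb (4.05 to 4.67%), 1.65% of far intervals (1.49 to 1.83%) and 2.54% of all autosomal intervals. The share was higher in members than in far intervals on 19 of 19 autosomes, and than in intragenic intervals on 17. It was 3.82% within 1 kb of the TSS and 6.36% at 4 to 5 kb. Upstream members held it at 6.07% and members beyond a 3′ end at 2.49% (5 of 201), and the Wilson intervals of these shares overlapped. Members had a median density of 202, against 130 in intergenic intervals at 5 to 50 kb and 121 in far intervals (mean of the libraries). The part of density, and of the selection of listed intervals, in the contrast of CTCF shares was not tested.

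Members with the CTCF word were also denser. Their median densities were 294 and 277 in replicates 1 and 2, against 194 and 193 in the other members. Of the 582 densest members 7.90% held the word, and of the 582 least dense 1.55%. The densest, chosen after their values were seen, were the members of Zfp703 and Tia1 printed above and one upstream of Crb2, with mean densities of 2224, 1723 and 1664, each under 200 bp long and free of repeats. Whether CTCF was bound there was not measured.

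**Figure D4:**
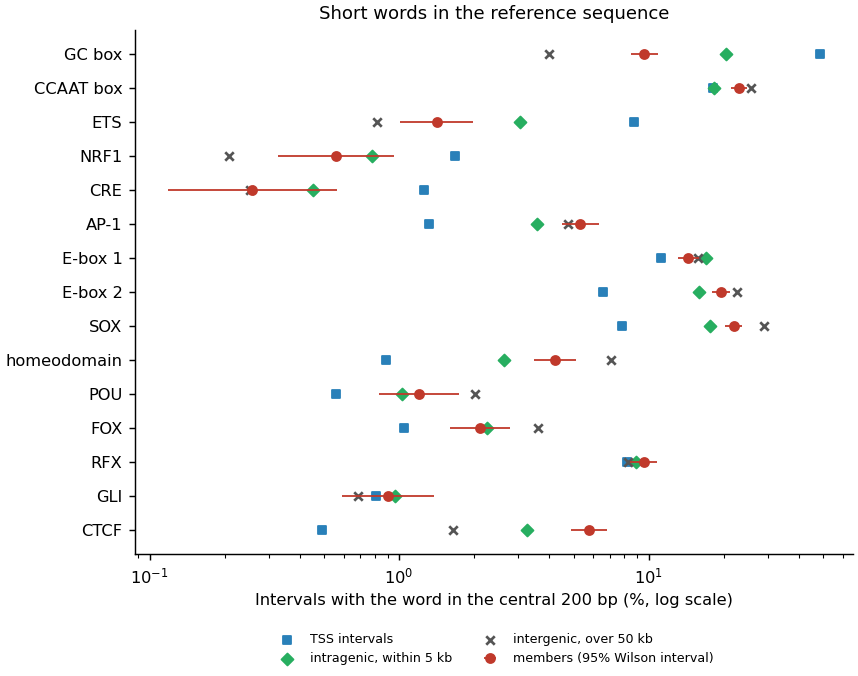
Percent of intervals, on a log scale, whose central 200 bp held each of 15 words, for members (red, with 95% Wilson interval), TSS intervals, intragenic intervals within 5 kb and intergenic intervals over 50 kb away. E-box 1 and E-box 2 are the pair of E-box words in the order named in the text; the GC box separates TSS intervals (48.6%) from members (9.63%), and CTCF was found in 5.76% of members and 1.65% of far intervals.

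The libraries gave nearly the same values for members. The squared Pearson correlation of log2 normalised counts plus 1 was 0.965, against 0.993 in TSS intervals and 0.945 in far intergenic intervals. Above a mean normalised count of 100, the log2 ratio of the libraries had an SD of 0.15, and no member differed 2-fold. In an exact binomial test of the pair of counts, adjusted over all 119502 intervals (Benjamini-Hochberg, limit 0.01), 0 members were called, and 0% of all intervals. At an unadjusted p under 0.05 there were 189 members, or 8.12%, beside 8.39% of all intervals. Scaling by edgeR's TMM factors also gave 0 members, and 6 intervals in all. This test compares 2 libraries, not conditions.

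The members that differed most above that count were modest in size. Gga2 had 80 and 122 counts in replicates 1 and 2, Kbtbd11 117 and 178, and Gucy1b2 152 and 101. Cryzl2 had 105 and 152 and Upk1a 148 and 103. The largest of these differences was 1.52-fold, and none was called by the exact binomial test (adjusted p of 0.202 to 0.344).

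**Figure D5:**
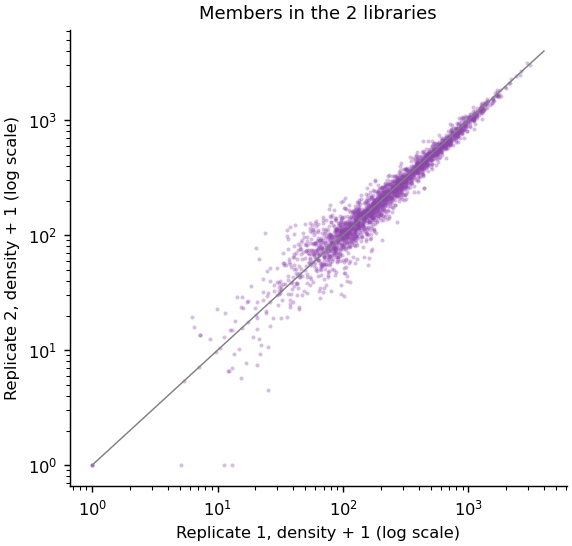
Density plus 1 of each of the 2327 members in replicate 1 (x axis) and replicate 2 (y axis), both on log scales, with the line of equal values. The points keep to the line over the whole range, with more scatter at low density.

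Finally, 6 members had no count in at least 1 library. Klrc2 and 2 members of Trim5 had none in either, which allows at most 10.4, 6.96 and 5.27 counts per kb at 3 counts per library (counting error only). Ly6c2 and Moxd2 had 2 counts and Klrc3 had 1 count, in replicate 1 alone. The table has counts for 5 libraries, of which the other 3 are not used here. The members of Klrc2 and Klrc3, genes of natural killer cell receptors, each matched 1 other place in the genome at over 99% identity, and whether reads were lost there was not tested.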

How the data were processed

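The authors processed the reads with the nf-core atacseq pipeline against mm10, called peaks with MACS, merged peaks seen in at least 2 replicates, and deposited featureCounts 2.0.1 counts per consensus interval. These counts are whole fragments, not normalised. The submitters' processing notes name DESeq2. Of the count columns, 3 matched no sample described here and were not used. Per the file headers, any interval holding at least 0.2 of a fragment counted it.

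From the counts, size factors were computed with DESeq2 1.42.0 (R 4.3.3), close to 1 for both libraries, and with edgeR 4.0.16 (TMM) as an alternative. Starts and genes came from GENCODE M21 and sequence from GRCm38.p6. There was 1 group, so tests of groups were not possible. The 2 libraries were compared by an exact binomial test (scipy 1.17.1) tested on simulated data first. Other copies were sought with BLAST+ 2.17.0 at 90% identity over 100 bp, among 104 named members. Members and gene lists were chosen with earlier results of these data known. Named were the 10 densest members, the 5 of largest count, the 5 with the largest difference between libraries above a mean of 100, 3 per gene list, the 5 genes with most members, 3 on each side of the limit, and members without a count. The split by the state of the TSS, the bins around 5 kb, the far intervals beside strong ones and the CTCF classes were added after the data were seen. A few named items are not reported here.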

Additional observations from a re-analysis of the deposited data

How the results depend on the processing

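Each result was recomputed with 1 choice changed at a time, 70 alternatives in all. Of these 41 left the result within its tolerance, 28 moved it further and 1 turned its direction. The tolerance was 1 SD between libraries for densities, ratios and the rank correlation, 1 SD between autosomes for the squared correlation, GC and CpG, the half-width of the Wilson interval for the percent of genes, and 1.5 times for counts. The causes were not tested.

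Counting every transcript start turned the ratio of members to intragenic intervals from below 1 to 1.262. It gave 198.3 for the median density, 0.2445 for the ratio to TSS intervals and 0.7303 for the ratio of the first to the last kb. Distance from the interval's centre gave a median density of 200.9, an intragenic ratio of 0.7437, a first to last kb ratio of 0.5648 and 9.314% of genes with a member. Overlap with protein-coding genes alone gave 208.6 and 11.79% of genes. A mean count of at least 10 gave a median density of 208.6 and a ratio to TSS intervals of 0.239.

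Adding 100 bp to each length gave 159.6, and ratios of 0.1981 (TSS), 0.7193 (intragenic) and 0.6198 (first to last kb). Counts per interval gave 90 and ratios of 0.07945, 0.6186, 0.6071 and, for far intervals, 1.837, with a rank correlation of 0.4687. Members at least 1 kb from the TSS interval gave a rank correlation of 0.5789. The squared correlation of the libraries was 0.9764 with a pseudocount of 10 and 0.9945 on linear counts. Chosen after seeing the data, genes with and without a TSS interval gave ratios to far intervals of 2.593 and 1.159, and of the first to the last kb of 0.5977 and 0.9567.

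Without replicate 1 or 2, the median density was 201.6 to 201.9, and the ratios ran from 0.2283 to 0.2358 (TSS), 1.648 to 1.696 (far), 0.7511 to 0.7632 (intragenic) and 0.6833 to 0.6956 (first to last kb), with a rank correlation of 0.5949 to 0.6086. No paired analysis was possible because the design holds a single group. A median of 90 counts per member limits what the 2 libraries can show at single intervals.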

Other observations

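Of the members with mean normalised counts above 100, those furthest above the start of their own gene are given first; they were picked once the values were known. The member upstream of Lax1, a lymphocyte adaptor gene, had densities of 738 and 782 in replicates 1 and 2, and the TSS interval had 27.9 and 24.8. Both members upstream of Icam2, an endothelial adhesion gene, had mean densities of 250.3 and 239.8 beside a TSS interval of 19.1. These starts were among the least open that carried an interval at all.

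The lowest adjusted p between the libraries by the exact binomial test was at the member upstream of Foxe3, a gene of the lens, with densities of 478 and 663 (adjusted p = 0.0346, above the limit of 0.01). Density varied between chromosomes: the medians were lowest on chromosome 18 (138 and 143) and highest on chromosome 10 (268 and 247). Chromosome 11 had 14.8 members per 100 protein-coding genes and chromosome 7 had 9.14. Per 100 TSS intervals these chromosomes had 24.95 and 20.6, and the extremes were chromosome 14 with 25.1 and chromosome 12 with 15.4.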
